A study of Mus musculus with 33 samples.

Results

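The microRNAs (miRNAs) described here are 42 mature miRNAs of the imprinted Dlk1-Dio3 locus of the mouse, measured in adult lung after instillation of carbon black nanoparticles or vehicle. They were chosen by name from the 650 miRNAs of the array, of which 611 were of mouse and 39 of mouse herpesviruses. The list was set by locus and not by a cut on signal, but earlier results of these data were known when it was chosen. The array names them with the prefix mmu- for mouse, which is mostly left out here. Whole lungs came from female C57BL/6 mice, a common inbred strain, and 33 single-colour arrays were read, 1 per mouse. The control groups received vehicle alone, which was MilliQ water with 0.9% NaCl and 10% v/v of cell-free lavage fluid (acellular BAL), and held 6 mice each at day 1, day 3 and day 28 after instillation. The exposed groups received 0.162 mg of Printex 90, an industrial carbon black made of nanosized particles, and held 6 mice at day 1, 4 at day 3 and 5 at day 28. The labels name no further allele or agent, and they give no age.

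The Dlk1-Dio3 locus is a cluster of genes whose expression depends on the parent of origin. The protein genes Dlk1, Rtl1 and Dio3 are read from the paternal chromosome, whereas the long noncoding RNAs Meg3, Rian and Mirg, and the miRNAs cut from this family of transcripts, come from the maternal chromosome. The miRNAs are known for high levels in the embryo, the placenta and the brain and for low levels in most adult organs, so the question put to these files was which of them rose above the background of the array in adult lung, and whether exposure or time changed them.

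Of the 42 members, 41 were matched to RefSeq hairpins on chromosome 12 (assembly GRCm38.p6), all on the plus strand, and they fell into 3 stretches along 163.6 kb. The first, chr12:109580233-109595388, ran from miR-493 to miR-136, lay within the span of Rtl1 and gave 11 members, including miR-127 and miR-136, which are transcribed antisense to Rtl1 and cut its mRNA. The second, chr12:109611500-109618336, lay within Rian and gave miR-341 and miR-370. The third, chr12:109709060-109743795, ran from miR-379 to miR-410 and gave 28 members, of which 6 lay within Mirg. The hairpin of miR-544 was not matched, and its mature sequence lay in the third stretch. Mature sequences of 39 members were matched, and those the results turn on are given here from RefSeq, 5′ to 3′, with the seed (bases 2 to 8, the stretch that pairs with target mRNAs) in capitals. The 39 seeds were all different, so none of these 39 members shared a seed with another of them. The seeds of miR-376c, miR-487b and miR-485 were not matched and were not compared. The first sequence belongs to miR-494, the only member above background on more than 1 array; miR-376c, the other member above background, is named only, and its neighbours miR-376b and miR-376a follow.
miR-494-3p: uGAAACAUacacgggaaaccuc
miR-376b-3p: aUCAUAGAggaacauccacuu
miR-376a-3p: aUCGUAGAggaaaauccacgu
The next set holds the 6 members whose signal was positive on all 33 arrays although none of these 6 was above background on any.
miR-127-3p: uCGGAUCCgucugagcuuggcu
miR-136-5p: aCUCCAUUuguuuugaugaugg
miR-337-3p: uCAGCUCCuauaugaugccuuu
miR-434-3p: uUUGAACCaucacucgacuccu
miR-329-3p: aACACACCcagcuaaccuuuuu
miR-154-5p: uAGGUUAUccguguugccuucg
The last sequence is that of miR-667, which with miR-329 carried the only adjusted p-values under 0.05 among the members in the fit of all mouse miRNAs described further on.
miR-667-3p: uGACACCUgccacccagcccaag

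Almost all of the cluster stayed at background. The scanner software marks each spot whose signal is well above its background, and a miRNA counted as above background where more unflagged spots than not of at least 1 of its probes carried that mark. By this rule 2 of the 42 members, 4.76%, were above background on at least 1 array, namely mmu-miR-494 and mmu-miR-376c, against 214 of the 569 other mouse miRNAs, 37.6%, and 35.4% of all 611 mouse miRNAs. No member was above background on all arrays, while 94 of the other mouse miRNAs were. Of the 1386 pairs of member and array, 3 were above background, 0.216%, against 26.6% for the other mouse miRNAs. Since the arrays were made from RNA of whole lung, fewer cells holding a miRNA and less of it per cell cannot be told apart.

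All 3 pairs lay in the exposed group of day 1, where 2 members were above background against 185 of the 569 other mouse miRNAs (32.5%; 30.6% of all 611). In each of the other 5 groups the count of members was 0. Counted over single spots, 48 of 27062 member spots were well above background (0.177%), against 22.0% for the other mouse miRNAs and 1.53% for the herpesvirus miRNAs. Among the herpesvirus miRNAs only mghv-miR-M1-2 was above background by the rule for miRNAs, on 29 arrays. Of the 48 member spots, 24 belonged to miR-494 and 18 to miR-376c, and the other 40 members together gave 6 of 25766. By group, the exposed arrays of day 1 held 39 of the 48 spots, and the control arrays held 2 at day 1, 1 at day 3 and 0 at day 28. No test was run on these counts, which are a description.

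Looser detection rules let a few more members pass. The scanner software's own mark for a detected miRNA was carried by 6 members on 11 pairs of member and array, by miR-494 on 4 arrays, by miR-668 on 3 and by miR-127, miR-300, miR-329 and miR-376c on 1 each; it was carried by 42.4% of the other mouse miRNAs. With at least 1 spot well above background as the rule, 8 members (19.0%) passed on 13 pairs, against 44.5% of the other mouse miRNAs. The array also held 33 other names of the locus, mostly star strands and further arms, of which 31 were matched to positions between Dlk1 and Dio3. None of the 33 was above background on any array; the scanner software marked miR-299* on 7 arrays and miR-485* on 3.

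**Figure D1:**
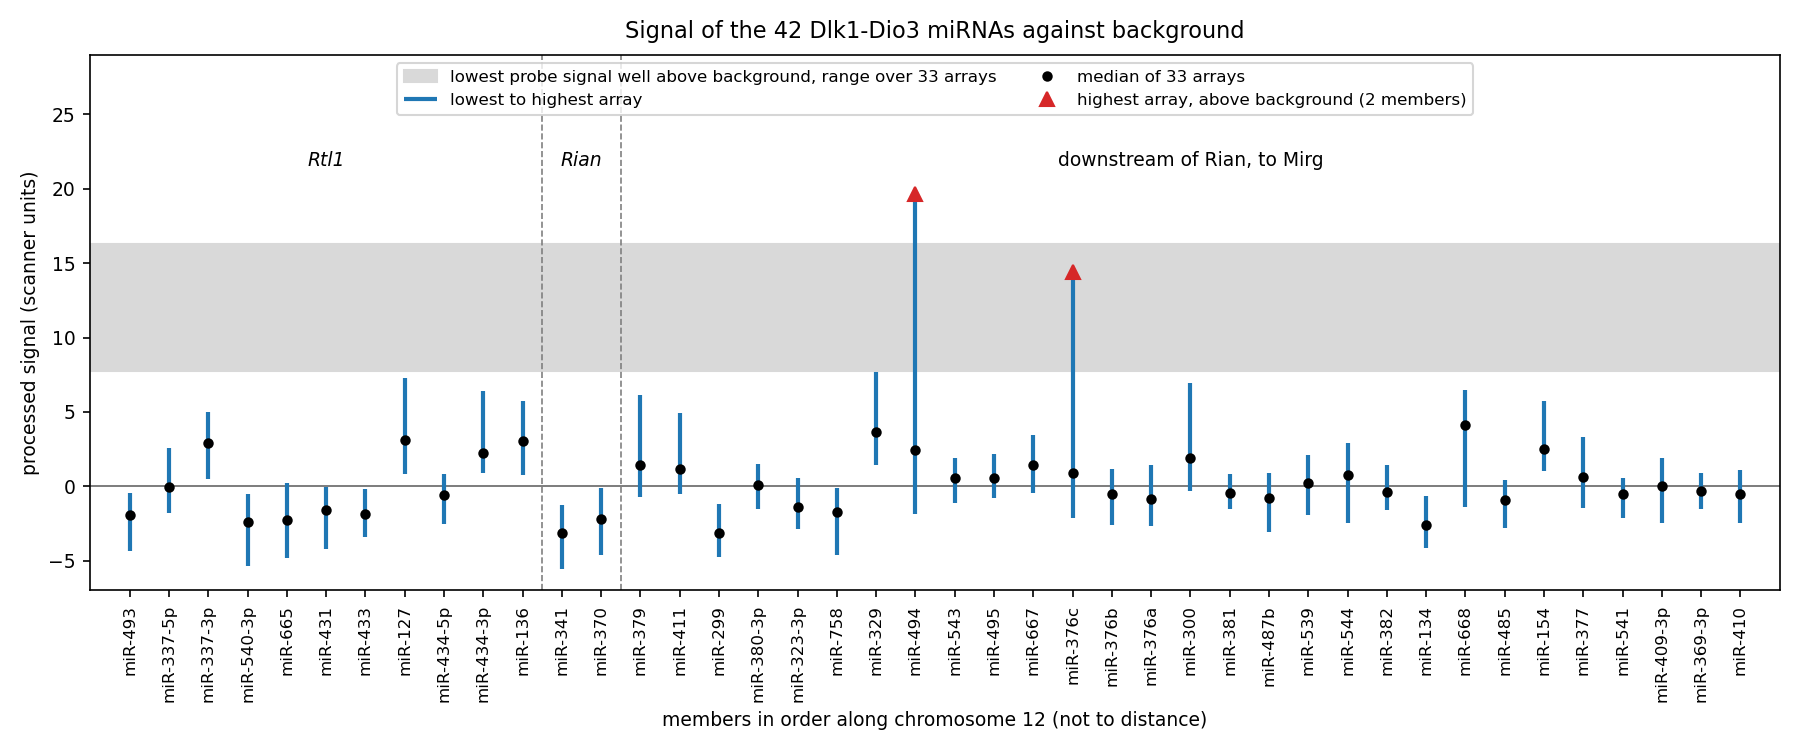
Processed signal in scanner units of the brightest probe of each of the 42 members, in order along chromosome 12; bars run from the lowest to the highest of the 33 arrays and dots are medians. The grey band is the range, over arrays, of the lowest probe signal that was well above background (7.72 to 16.3). Only miR-494 and miR-376c entered or passed the band; the miR-329 bar ended just under it at 7.68.

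Other miRNAs of the lung were above background on the same arrays. How dim a miRNA these arrays could show was not tested. The number of mouse miRNAs above background ran from 99 to 193 per array, and array brightness, taken as the 75th percentile of signal among probes seen on all arrays, ran from 187 to 1211. All 5 epithelial markers taken for comparison (the miR-200 family with miR-141 and miR-429) were above background on all arrays, as were the 3 myeloid markers (miR-223 and both arms of miR-142), the 3 mesenchymal markers found on the array and the 3 erythroid markers. Both endothelial miR-126 arms and both smooth muscle markers were also above background on some or all arrays. Of the 7 brain markers 5 were above background on no array, miR-124, miR-9, miR-137, miR-138 and miR-129-5p. The lowest probe signal well above background ran from 7.72 to 16.3 on the different arrays (median 10.7), and members were set against that level. The brightest group was control day 28, with a median 75th percentile of 985 and a median of 175.5 mouse miRNAs above background, and it held 0 members. Exposed day 1 was less bright, with a 75th percentile of 545 to 791 and a median of 162.5 miRNAs above background, and control day 1 was the dimmest, with medians of 365 and 129.

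**Figure D2:**
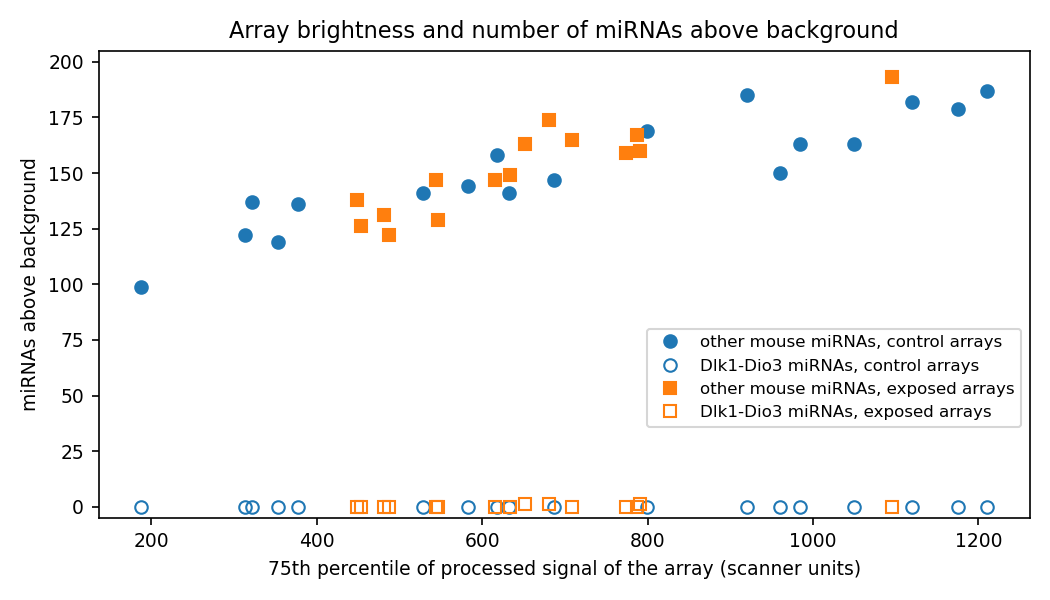
Number of miRNAs above background on each of the 33 arrays against the array's brightness, the 75th percentile of processed signal in scanner units; filled symbols are other mouse miRNAs, open symbols the Dlk1-Dio3 members. Brighter arrays had more other mouse miRNAs above background (99 to 193 mouse miRNAs in all), while members numbered 0 or 1 on every array.

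Signals of different probes do not give the relative levels of different miRNAs, so each member was set against background only. The processed signal has the local background subtracted and can be below 0. The median over the 33 arrays lay between -3.13 and 4.14 for the 42 members (median -0.18), and it was above 0 for 19 of them. The 355 other mouse miRNAs that were above background on no array had a median of -0.58, and the 39 herpesvirus miRNAs -2.03. Of the herpesvirus miRNAs, mghv-miR-M1-2 alone was above background, on 29 arrays. A positive signal on all 33 arrays was found for 6 members, 14.3%, against 8.17% of those 355 other mouse miRNAs and 39.9% of all 569. A median above 0 was found for 45.2% of members, 37.5% of those 355 and 60.8% of all 569 other mouse miRNAs.

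Of the 6 members with a positive signal on all arrays, 4 came from the Rtl1 stretch. The signal of mmu-miR-127 ran from 0.80 to 7.27 with a median of 3.11, that of miR-136 from 0.78 to 5.72 with a median of 3.03, and that of miR-337-3p from 0.51 to 4.97 with a median of 2.93. The fourth, miR-434-3p, ran from 0.92 to 6.39. All of these values are under the lowest probe signal called on any array, 7.72. The opposite arms of 2 of these hairpins did not keep a positive signal: miR-337-5p was positive on 15 arrays and miR-434-5p on 8. In the third stretch miR-329, which is induced by activity in neurons, ran from 1.41 to 7.68, and miR-154 ran from 1.05 to 5.70.

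Further members were positive on most arrays. The signal of miR-668 was positive on 31 arrays and ran from -1.40 to 6.49, that of miR-300 on 32 arrays with values from -0.33 to 6.94, and that of miR-379, the first miRNA of the third stretch, on 29 with values up to 6.13. These values belong to the brightest probe of each miRNA. The lowest median among the probes of each was 2.81 for miR-668, -0.85 for miR-300 and -2.13 for miR-379. No member of these 3 was above background on any array, and the ranges of the 6 groups overlapped for miR-668, whose group medians ran from 2.92 in control day 1 to 5.25 in exposed day 28. At the other end 9 members had no positive value on any array. These were miR-431, miR-433, miR-493 and miR-540-3p of the Rtl1 stretch, miR-341 and miR-370 of the Rian stretch, and miR-299, miR-758 and miR-134 of the third stretch. In neurons miR-134 is known to limit the size of dendritic spines; here its signal ran from -4.17 to -0.68. The remaining members were positive on 1 to 31 arrays with no value above 4.93. They were miR-337-5p, miR-434-5p and miR-665 of the Rtl1 stretch, and miR-323-3p, miR-369-3p, miR-376a, miR-376b, miR-377, miR-380-3p, miR-381, miR-382, miR-409-3p, miR-410, miR-411, miR-485, miR-487b, miR-495, miR-539, miR-541, miR-543, miR-544 and miR-667 of the third stretch.

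**Figure D3:**
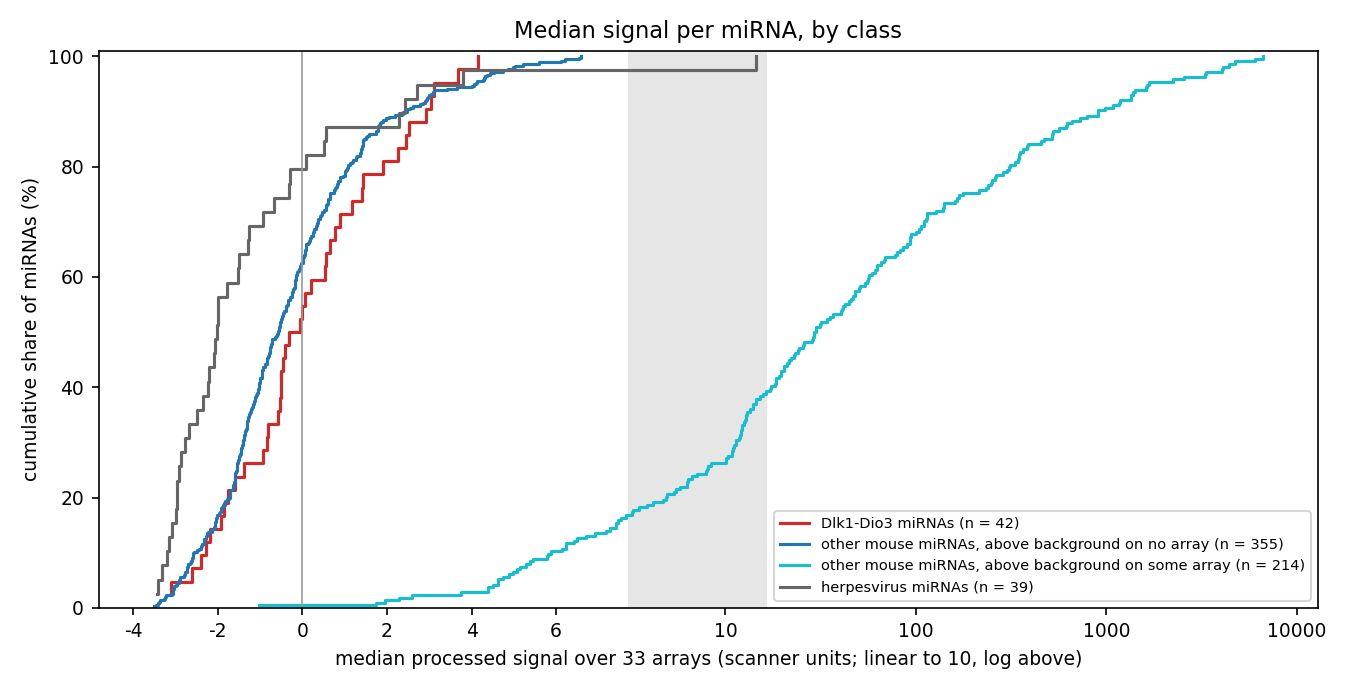
Cumulative share of miRNAs (percent) by their median processed signal over the 33 arrays, in scanner units on an axis that is linear to 10 and logarithmic above. The 42 members (median -0.18) run close to the 355 other mouse miRNAs that were above background on no array (median -0.58), far left of the 214 that were; the grey band marks the lowest signals called above background, 7.72 to 16.3.

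The member above background on most arrays was mmu-miR-494. On the 6 exposed arrays of day 1 its scaled signal, which corrects for the brightness of each array, was 11.2 in replicate 3, 4.98 in replicate 7, 2.07 in replicate 15, 4.31 in replicate 19, 3.18 in replicate 26 and 19.1 in replicate 29. On the 6 control arrays of day 1 it was 2.53 in replicate 1, 1.34 in replicate 5, -2.81 in replicate 13, 2.59 in replicate 17, -2.40 in replicate 24 and -6.24 in replicate 27. Replicates 3 and 29 of the exposed group stood high, and the groups overlapped, because exposed replicate 15 lay below 2 of the controls. Before scaling, replicate 3 gave 13.9, with 7 of 7 spots well above background, and replicate 29 gave 19.6, with 10 of 10 spots.

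The group means of scaled miR-494 signal at day 1 were 7.47 ± 6.52 (SD, n = 6) in exposed lungs and -0.83 ± 3.56 (SD, n = 6) in control lungs. Scaling also stretched values below 0 on dim arrays: control replicate 27, the dimmest, went from -1.84 to -6.24. Before scaling, exposed arrays of day 1 ran from 1.79 to 19.6 with a median of 4.63. The controls of day 1 then ran from -1.84 to 2.52 with a median of 0.08. Each exposed array of day 1 shared a slide with 1 control array of day 1. In 6 of 6 such pairs miR-494 was higher on the exposed array, by 1.72 to 25.3. The difference of 25.3 came from the pair of exposed replicate 29 and control replicate 27. Since miR-494 was singled out by its high signal on 2 of these exposed arrays, the day 1 values are a description and no independent support for a difference. At day 3 the scaled signal of the 4 exposed arrays ran from 2.45 to 11.1 with a median of 3.99, against 0.83 to 7.46 with a median of 1.19 in the 6 controls, and it was higher in 3 of 4 slide pairs. At day 28 the 5 exposed arrays ran from -0.42 to 5.70 with a median of 1.01 and the 6 controls from 0.31 to 3.28 with a median of 1.44, and exposed was higher in 2 of 5 pairs. The exposed and control ranges overlapped on all 3 days.

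The fit across all mouse miRNAs did not call miR-494. On the log2 scale of scaled signal with a floor of 1, exposed minus control at day 1 was 1.96 ± 0.59 (SE), with an adjusted p of 0.138 in limma. At day 3 it was 1.30 ± 0.66 and at day 28 0.42 ± 0.62, each with an adjusted p of 1. Over the alternatives run the day 1 difference ran from -0.41 to 2.24 and its adjusted p from 0.0785 to 0.426. The value of -0.41 came from normexp background correction, under which the median of all 611 mouse miRNAs was -0.55 in the same comparison; there it lay above that median. The difference between days in the exposure effect was -1.54 ± 0.86 for day 28 minus day 1 (adjusted p = 0.647). No fold is given, because on each day the exposed mean lay under the mean of the lowest signals called above background on the control arrays.

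The array carries 2 probes for miR-494, and the same 4 arrays were highest in unscaled signal for each, namely exposed replicates 29, 3, 33 and 8. All 24 spots of miR-494 well above background belonged to the brighter probe. The other probe had no such spot on any array. Its highest signal was 5.46, in exposed day 1 replicate 29, under the lowest probe signal called on any array, 7.72. These 4 highest arrays came from day 1, day 1, day 3 and day 28. The highest scaled value on a control array was 7.46, in control day 3 replicate 25. Summed signal of the myeloid markers ran from 577 to 1828 in controls of day 1 and from 873 to 2318 in exposed lungs of day 1, so these ranges overlapped; their part in the miR-494 values was not tested. All 18 control arrays lay in the first column of their slide and all 15 exposed arrays in the second, so slide column and exposure cannot be told apart.

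**Figure D4:**
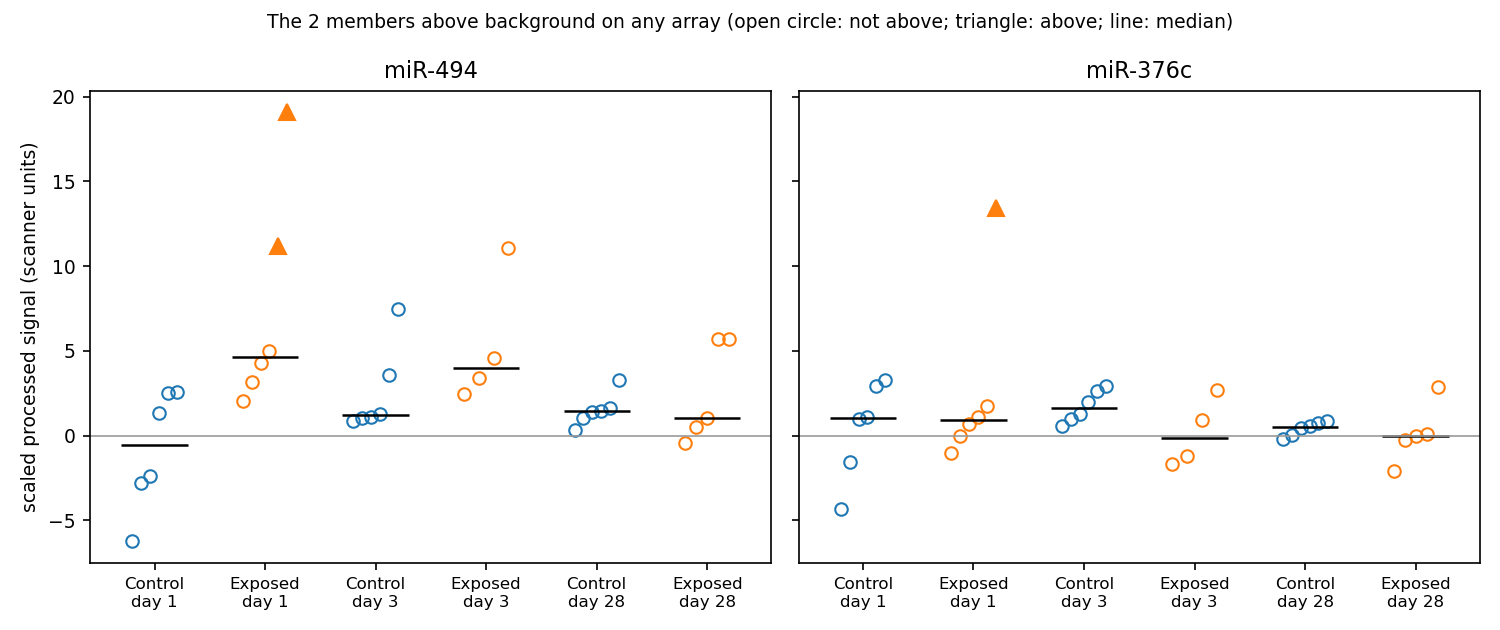
Scaled processed signal in scanner units of miR-494 (left) and miR-376c (right) on each of the 33 arrays by group; triangles are arrays above background, open circles the rest, and lines are group medians. The 3 triangles are exposed arrays of day 1: miR-494 at 11.2 and 19.1 and miR-376c at 13.4.

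The signal of mmu-miR-376c rested on a single mouse. In exposed day 1 replicate 26 its 4 probes gave 10.7, 11.7, 13.6 and 14.4, and 18 of their 20 spots were well above background. The scaled signal of the brightest probe was 13.4 there and at most 3.30 on the other 32 arrays. The miR-376 hairpins lie side by side in the third stretch and are known for editing of adenosine to inosine in their seeds, but miR-376a and miR-376b stayed near 0 on that array, at 0.39 and -0.11 in scaled signal. Exposed minus control at day 1 was 0.21 ± 0.50 (SE) for miR-376c (limma, adjusted p = 1), and -0.38 without replicate 26. Of the 16 mouse miRNAs that were above background on exactly 1 array, 4 were so on this array and 7 on exposed day 28 replicate 8.

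The planned comparison of groups took only miRNAs above background in 4 or more mice of some group, and of the 171 mouse miRNAs that passed 0 were members. Of those 171 limma called 0% for exposed minus control at day 1, day 3 and day 28 and for control day 3 minus day 1, and 6.43% for control day 28 minus day 1. Differences were therefore also taken from a limma fit of all 611 mouse miRNAs, with the warning that nearly every member value there lies under the lowest signal called. In that fit 0 of 42 members had an adjusted p under 0.05 for exposed minus control at day 1, where 0.491% of all 611 did. The count was also 0 at day 3 (0% of all) and at day 28 (0.164% of all). Without adjustment, 3 members at day 1, 0 at day 3 and 1 at day 28 had a limma p under 0.05. The share at day 1 was 7.14% of members and 10.5% of all miRNAs. At day 3 it was 0% and 2.62%, and at day 28 it was 2.38% and 3.44%. The 3 at day 1, named after their values were seen, were miR-494, miR-667 at -1.07 ± 0.34 (adjusted p = 0.147) and miR-154 at -0.79 ± 0.35 (adjusted p = 0.408). The 1 at day 28 was miR-329 at 0.93 ± 0.34 (adjusted p = 1).

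The signs of the member differences were mixed for exposure, leaning below 0 at day 1 and day 3 and above 0 at day 28. At day 1 the fitted difference was above 0 for 5 members, below 0 for 19 and exactly 0 for 18 that stayed at the floor in both groups, and the median was 0 for the members and 0 for all 611 miRNAs. At day 3 the counts were 8, 13 and 21 and at day 28 they were 15, 5 and 22, again with medians of 0. None of the 42 members was called for a difference of the exposure effect between days (0% of all 611 for day 3 minus day 1, 0.164% for day 28 minus day 1 and 0% for day 28 minus day 3), and 2, 2 and 0 members had an unadjusted limma p under 0.05, against 2.95%, 8.51% and 0.818% of all 611 (the members' shares were 4.76%, 4.76% and 0%).

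Between control groups the fit of all mouse miRNAs called 0 members for day 3 minus day 1 (0% of all 611) and 2 for day 28 minus day 1, where 2.62% of all 611 were called. Without adjustment, 4 members (9.52%) against 6.71% of all 611 had a p under 0.05 in the former and 8 members (19.0%) against 18.2% of all in the latter, so the members' shares were near those of all miRNAs. The fitted difference was above 0 for 5 members, below 0 for 19 and 0 for 18 in the former, and above 0 for 1, below 0 for 22 and 0 for 19 in the latter, with member medians of 0 and -0.041 against 0 and -0.030 for all 611. Here too the signs over all 611 are not given, so these sign counts do not set the members apart. The 2 members called for day 28 minus day 1 were mmu-miR-329 and mmu-miR-667, named after their values were seen. The mean log2 scaled signal of miR-329 was 2.28 ± 0.65 (SD, n = 6) in control day 1 and 1.01 ± 0.57 (SD, n = 6) in control day 28, a difference of -1.27 ± 0.32 (SE; limma, adjusted p = 0.0220). That of miR-667 was 1.69 ± 0.88 in control day 1 and 0.19 ± 0.38 in control day 28, a difference of -1.50 ± 0.34 (adjusted p = 0.0173). Neither miRNA was above background on any array, so these are differences of signals within background. They rest on the brightest probe of each. The lowest median among its probes was 1.46 for miR-329 and -2.94 for miR-667. With the mean over probes miR-667 was called and miR-329 was not.

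The control groups of day 1 and day 28 also differed in array brightness, and its part in these differences was not tested. Before scaling, the signal of miR-329 ran from 1.97 to 5.21 with a median of 3.53 in control day 1 and from 1.41 to 7.68 with a median of 2.70 in control day 28, and that of miR-667 from 0.90 to 3.16 with a median of 2.06 and from 0.10 to 3.43 with a median of 1.45, so the unscaled groups overlapped. The median 75th percentile was 365 in the former group and 985 in the latter. Without scaling the difference was -0.084 ± 0.32 for miR-329 (adjusted p = 1) and -0.34 ± 0.30 for miR-667 (adjusted p = 0.550), and miR-544 was the single member called, at -0.67 ± 0.19 (adjusted p = 0.0313). With slide as a fixed block 0 members were called, and miR-329 was at -1.05 ± 0.29 and miR-667 at -1.32 ± 0.39 (adjusted p = 0.0762 each). With slide as a random block 3 were called, miR-329 (adjusted p = 0.0184), miR-667 (adjusted p = 0.0155) and miR-154 (adjusted p = 0.0422). Over all alternatives run, the difference ran from -1.49 to -0.041 for miR-329 and from -1.83 to -0.017 for miR-667, below 0 in each.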

How the data were processed

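RNA of whole lung from 33 mice was put on single-colour Agilent miRNA arrays with a Cy3 label, as the labels' protocols state. Each deposited file gives spot intensity on a linear scale, read with Feature Extraction 10.7.3.1; the processed signal has background subtracted, per the file headers. The authors' deposited series table holds log2 values, of unknown scaling and centring; against the log2 median signal its columns correlated at 0.986 to 0.994 across miRNAs, with column medians of 5.41 to 5.43 and member values of 5.25 to 5.73. It served as an alternative only.

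Each array held 13000 spots that were not controls; flagged spots (2.30%) were left out and 0 were saturated. Signals were averaged per probe, scaled so that the 75th percentile of 156 always-detected probes was equal on every array, floored at 1 and log2-transformed, and the brightest probe stood for a miRNA; the 42 members had 106 probes. Groups came from the labels. Differences were tested with limma 3.58.1 (R 4.3.3), a model of 6 group means with an intensity trend, two-sided, with Benjamini-Hochberg adjustment over all miRNAs tested and a threshold of 0.05. The test was checked on simulated data that had no floor, so the check does not cover miRNAs held at the floor. In the reported setting 155 of the 611 mouse miRNAs had no spread. Because no member passed the filter of 4 arrays in a group, member differences came from the fit without a filter. The number of arrays limits precision. All 42 members were named, in most detail those above background on any array. Fit values are also given for some members that were above background on no array. Members and lists were chosen with earlier results of these data known. Array names without an arm were matched to RefSeq arms by hand. Alternatives covered scaling, background correction, signal column, probe summary, filter, floor, slide, detection rule and leaving out each array. Markers of epithelium, endothelium, mesenchyme, smooth muscle, brain, striated muscle, liver, myeloid and erythroid cells were compared: of 6 striated muscle markers 3 were above background on any array, and of 1 liver marker 1.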

Additional observations from a re-analysis of the deposited data

Results flagged for a closer look

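In the exposed group of day 1 the scaled signal of miR-376c was 13.4 in replicate 26, far from the other 5 arrays of that group, whose highest value was 1.74. The gap to the nearest array, as a share of the group's range, exceeded the critical value of Dixon's test. The check was run on miR-494 and miR-376c in 6 groups each, 12 in all, of which 1 was flagged. Chance flags about 1 group in 20 where a miRNA is not picked by its values. Here miR-376c was taken up because it was above background on this same array and on no other. That rate therefore does not apply, and the flag is a description only.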

How the results depend on the processing

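Each replicate number of the series belongs to a single array, so the numbers pair no samples; arrays were paired or blocked by slide instead. With the filter on dim miRNAs 0 members were tested or called in each of the 5 comparisons under every alternative, except that with no filter 2 were called for control day 28 minus day 1. In the fit of all mouse miRNAs the alternatives, chosen after seeing the data, changed some counts of members called. The share of all 611 miRNAs called under each alternative is not given here, so these counts do not set the members apart. For exposed minus control at day 1 the count was 1 with the percentile over all probes, with no scaling and with quantile normalization (miR-544 each time), 4 with the series table (differences of -0.069 to 0.081) and 0 to 1 when single arrays were left out, the 1 coming without control day 1 replicate 5. For control day 3 minus day 1 it ran from 0 to 1, again without that array. For control day 28 minus day 1 it was 0 with the percentile over all probes, with quantile normalization, with the series table and with slide as a fixed block. It was 1 with no scaling, 2 without slide 1 (miR-329 and miR-667) and 3 with slide as a random block (these and miR-154). With the mean over probes it was 4 (miR-127, miR-380-3p, miR-544 and miR-667), and miR-329 was not among them. Normexp gave 42, where the median of all miRNAs was -1.04. Leaving out single arrays gave 0 (without control day 1 replicate 13) to 4 (without control day 1 replicate 5), and 1 without control day 1 replicate 1 or 27 or control day 28 replicate 6 or 22. The miR-494 difference turned to -0.41 at day 1 with normexp and to -0.017 at day 28 with the series table, and that of miR-376c at day 1 to -0.51 with normexp and -0.38 without exposed day 1 replicate 26, with up to 0.44 when other single arrays were left out; the causes were not tested. Members above background on any array numbered 6 by the scanner software's mark, 8 with at least 1 spot as the rule and 1 to 2 when single arrays were left out (1 without exposed day 1 replicate 26). By the scanner software's mark the counts were 2 in control day 1, 0 in control day 3, 2 in control day 28, 3 in exposed day 1, 2 in exposed day 3 and 1 in exposed day 28; with at least 1 spot as the rule they were 2 in control day 1, 1 in control day 3, 0 in control day 28, 5 in exposed day 1, 2 in exposed day 3 and 1 in exposed day 28. Normexp used the median spot signal, since the files used here gave no mean signal. The fit of all mouse miRNAs was not run with a floor of 10 or with the total gene signal, because 387 and 364 of the 611 miRNAs then had no spread, against 155 in the reported setting. Signals near background limit all of these differences.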
